A study of Mus musculus with 12 samples.

Results

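The 10 genes described here encode MHC class II molecules, their chaperone, a protease with its inhibitor, and products of macrophages. They are H2-Ab1, H2-Aa, H2-Eb1, Cd74, Ctss, Cst3, Lyz2, Apoe, C1qb and Csf1r. They were chosen by symbol, and every probe set that the platform annotation assigns to 1 of these symbols alone was taken, which gave 15 of the 12422 probe sets that are not controls, or 10 of 8251 genes. H2-Ab1, H2-Aa, H2-Eb1, Cd74 and Ctss have 1 probe set each, and the other 5 genes have 2 each. A further probe set carries both Lyz1 and Lyz2 as symbols and was kept apart. The question put to the data was whether the cultures carried RNA of antigen-presenting cells.

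RNA from day 6 of reaggregate thymic organ culture (RTOC) was measured on 12 Affymetrix mouse arrays. In RTOC, thymocytes and thymic stroma are mixed and cultured together. HY_high and HY_low cells carried the HY receptor, a transgenic T cell receptor for a male peptide of Smcy. They were cultured with Smcy peptide at 1e-05 M (HY_high) or 1e-07 M (HY_low). OT1 thymocytes carried the transgenic receptor OT1, which recognises an ovalbumin peptide, and their labels name no peptide. Only the OT1 labels name thymocytes, while the HY labels name the receptor, the culture and the peptide. Each group has 4 arrays, whose titles are numbered 1 to 4. Strain, sex, the stroma used, any sorting of the cells and whether replicates were separate cultures are not stated in the labels, so the p-values cover no more than the scatter of these arrays. The titles of HY_high and HY_low also carry different unexplained letters, which cannot be told apart from the peptide dose, and OT1 differs from both HY groups in receptor as well as peptide.

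MHC class II molecules are pairs of an alpha and a beta chain that show peptides from the endosome to CD4 T cells. They are made by dendritic cells, B cells, macrophages and thymic epithelium, and mouse thymocytes are known for making very little. The invariant chain, Cd74, fills the groove of new class II molecules until endosomal proteases remove it, cathepsin S (Ctss) among them in B cells and dendritic cells. Lysozyme (Lyz2), apolipoprotein E (Apoe), complement C1q (C1qb) and the receptor for CSF1 (Csf1r) are widely used to recognise macrophages.

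Class II genes are switched on together by the coactivator Ciita through short elements shared by their promoters, one of which, the Y box, holds the letters ATTGG. The promoter stretches of H2-Aa and H2-Eb1 are shown because they let a reader see that shared element, and that of Ctss because Ctss is the member with the brightest signal. The sequences are those of RefSeq on build GRCm38.p6, and 7 of the 10 genes had a promoter window that was used, from 250 bases before the start to 50 after it. Capitals mark CTGATTGG in H2-Aa and H2-Eb1, and GAAA repeated after any 2 bases, a spacing known from interferon response elements, in Ctss.
H2-Aa, chr17:34287844-34287913, minus strand: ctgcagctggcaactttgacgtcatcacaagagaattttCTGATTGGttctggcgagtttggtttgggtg
H2-Eb1, chr17:34305767-34305836, plus strand: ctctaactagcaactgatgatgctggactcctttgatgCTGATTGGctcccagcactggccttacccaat
Ctss, chr3:95526726-95526785, plus strand: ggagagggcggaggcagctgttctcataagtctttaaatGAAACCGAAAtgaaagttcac

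On either strand, CTGATTGG occurred in 4.10% of the 32851 promoter windows of the mouse table and the GAAA repeat in 3.44%. The first letter of the match lay 51 bases before the start of H2-Aa, 62 before that of H2-Eb1 and 21 before that of Ctss. Among the windows of these genes CTGATTGG was found in those of H2-Aa and H2-Eb1, and the GAAA repeat in that of Ctss. The windows of Cst3, Lyz2, Apoe and C1qb held neither. These matches describe the letters only, and no binding was measured.

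The signal of the class II genes was low, while cathepsin S was bright on all 12 arrays. H2-Ab1 and H2-Aa lay close to the bottom of the scale and exceeded the array median on 3 and 2 arrays. H2-Eb1 and Cd74 exceeded it on 11 and 10 arrays. The lowest deposited value is 1, which 15.3% of all values take, and the median of all values is 3.71. Of the 180 values of the 15 probe sets, 31 (17.2%) lay at 1 and 39 (21.7%) above 8, against 15.3% and 33.5% of all values. Without Ctss and the brighter Cst3 probe set, 15 of 156 values (9.62%) lay above 8. Of the 15 bacterial control probe sets that have no counterpart in mouse RNA, 0 of 180 values lay above 8 and the highest was 5.49. The antisense control probe sets reached 33.6, with 34.4% of their values above 8, so a value near 10 is not by itself a sign of a transcript.

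**Figure D1:**
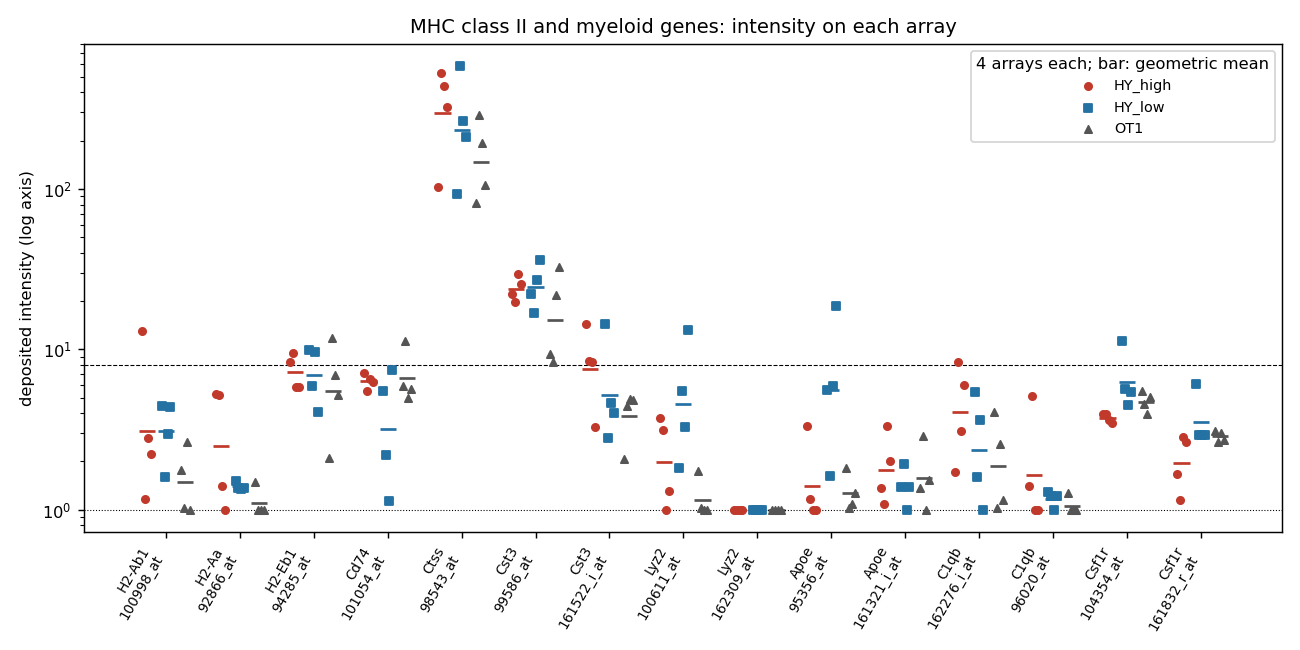
Deposited intensity (log axis) of each of the 15 probe sets on every array, for HY_high (circles), HY_low (squares) and OT1 (triangles), 4 arrays each; short bars are geometric means, the dotted line is the lowest value of 1 and the dashed line is 8. Ctss lies above 80 on all arrays and the brighter Cst3 probe set above 8, while the other 13 probe sets have geometric means over the 12 arrays of 6.48 or less.

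H2-Ab1, which encodes the beta chain of the class II molecule I-A, had intensities of 13.0, 1.16, 2.78 and 2.22 on HY_high arrays 1 to 4. On HY_low arrays 1 to 4 it had 4.46, 1.60, 2.95 and 4.38, and on OT1 arrays 1.77, 1.02, 2.64 and 1. HY_high array 1 is the only array on which it exceeded 8, and the 3 groups overlap. H2-Aa, the alpha chain that pairs with H2-Ab1, had 5.27, 5.22, 1.41 and 1 in HY_high, 1.52, 1.37, 1.35 and 1.36 in HY_low, and 1.48, 1, 1 and 1 in OT1. It exceeded 8 on no array, and its mean lay under the level required for testing, an intensity of 1.76, so it has no test. The highest values of both chains, 5.27 and 13.0, stand on the same array.

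H2-Eb1, the beta chain of the class II molecule I-E, was the brightest class II chain by geometric mean, at 6.48 over the 12 arrays. It had 8.31, 9.52, 5.85 and 5.84 in HY_high, 9.85, 5.91, 9.65 and 4.06 in HY_low, and 2.11, 11.8, 6.90 and 5.22 in OT1. The highest and the lowest of its 12 values both belong to OT1, so the groups lie within one another. Cd74, the invariant chain, had 7.12, 5.51, 6.50 and 6.30 in HY_high, 5.46, 2.19, 1.13 and 7.41 in HY_low, and 5.90, 11.3, 4.98 and 5.65 in OT1. Its highest value stood on OT1 array 2, and its 2 lowest on HY_low arrays 2 and 3. Cd74 and the class II chains did not follow each other from array to array. As a description over the 12 arrays, which share the number pairing reported below, Pearson's r was 0.07 between H2-Ab1 and H2-Eb1, 0.0018 between H2-Ab1 and Cd74, and -0.10 between H2-Eb1 and Cd74.

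Ctss, the lysosomal protease cathepsin S, had 102.6, 528, 437 and 325 on HY_high arrays 1 to 4. It had 93.3, 583, 264 and 209 on HY_low arrays and 81.2, 287.5, 192 and 106 on OT1 arrays. Array 1 of each group was its lowest and array 2 its highest, so the groups overlap although OT1 had the lowest value within each number. Cst3, cystatin C, a secreted inhibitor of cysteine cathepsins, had 22.2, 19.6, 29.3 and 25.4 in HY_high, 22.2, 16.9, 26.9 and 36.0 in HY_low, and 9.34, 8.31, 21.7 and 32.5 in OT1 on its brighter probe set. OT1 arrays 1 and 2 lay below the HY arrays, and OT1 array 4 above all but 1 of them. The dimmer Cst3 probe set had a geometric mean of 5.33 and exceeded 8 on 4 of the 12 arrays.

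Lyz2, the lysozyme of macrophages and granulocytes, had 3.73, 3.13, 1 and 1.30 in HY_high, 1.83, 5.52, 3.28 and 13.2 in HY_low, and 1.75, 1.02, 1 and 1 in OT1. Its other probe set lay at 1 on all 12 arrays. The probe set shared with Lyz1 had 11.2 on HY_low array 4 and at most 3.22 on the other arrays. Apoe, a lipid carrier made by macrophages, had 3.33, 1.17, 1 and 1 in HY_high, 5.55, 1.63, 5.90 and 18.5 in HY_low, and 1.82, 1.02, 1.09 and 1.27 in OT1. The highest values of Lyz2, of the shared Lyz1 and Lyz2 probe set and of Apoe thus fell on HY_low array 4. The other Apoe probe set reached 3.32 at most, on HY_high array 3, and had 1.39 on HY_low array 4.

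C1qb, a chain of complement C1q, had 1.72, 8.37, 3.10 and 6.00 in HY_high, 5.39, 1.60, 3.60 and 1 in HY_low, and 4.09, 1.02, 2.55 and 1.15 in OT1 on the brighter of its probe sets. The other lay at 1 on 6 of the 12 arrays and reached 5.11. On HY_low array 4, where Lyz2 and Apoe were highest, the brighter C1qb probe set was at 1. Csf1r, the receptor through which CSF1 maintains macrophages, had 3.94, 3.93, 3.61 and 3.47 in HY_high, 11.3, 5.63, 4.48 and 5.44 in HY_low, and 5.52, 4.53, 3.95 and 5.01 in OT1. Its HY_high values are the narrowest set of any group and lie below every HY_low and OT1 value. The second Csf1r probe set had 1.15 to 2.86 in HY_high, 2.92 to 6.07 in HY_low and 2.65 to 3.09 in OT1.

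HY_high against HY_low sets the higher peptide dose against the lower. Of the 15 probe sets, 11 passed the filter on dim signal. With limma 0 of these 11 passed an adjusted p of 0.05, where 0.023% of all 8695 probe sets tested did. In the same fit 1, Apoe, had an unadjusted p under 0.05, where 2.96% of all did. The latter share is not read, since Apoe passed the filter through its HY_low values. Without the HY_low arrays its geometric mean was 1.33, under the level required for testing. With the replicate number as a block, 0 of 11 passed, where 0.345% of all did. The median log2 difference over the 11 was 0.0042, beside 0.01 over all probe sets tested, and 6 differences were positive. The class II chains gave 0.0042 ± 0.64 (SE, n = 4 per group) for H2-Ab1 and 0.06 ± 0.53 for H2-Eb1, and Cd74 gave 1.001 ± 0.55 (limma adjusted p = 1 for each).

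Apoe averaged 1.40 in HY_high (geometric mean) and 5.61 in HY_low, which is -1.997 ± 0.62 on the log2 scale. Its adjusted p by limma was 1, and 0.162 once the number was blocked. It was lower within 4 of 4 numbers, as 9.76% of all probe sets were. This share is not read either, since Apoe passed the filter through HY_low. Most of this difference lies in values under 8: with all values under 8 set to 8 it was -0.30. Lyz2 had 1.97 in HY_high and 4.57 in HY_low (log2 difference -1.21 ± 0.59, adjusted p = 1), and without HY_low array 4 its difference was -0.70. Both Csf1r probe sets were lower in HY_high without overlap between the groups, which 0.782% of all probe sets were. Their log2 differences were -0.75 ± 0.42 and -0.85 ± 0.44, and neither passed (limma adjusted p = 1, or 0.486 and 0.490 with the block). Values this low could not be told from background with the controls at hand.

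The comparison of HY_low with OT1 changes the receptor and the peptide together. With limma 0 of 11 probe sets passed, where 0.023% of all did, and with the block 0 of 11, where 0.092% of all did. An unadjusted p under 0.05 was reached by 2, Apoe and Lyz2, where 2.65% of all reached it. Nothing is read from this share, since both passed the filter through their HY_low values: over the other 8 arrays their geometric means, 1.33 for Apoe and 1.51 for Lyz2, lie under 1.76. Of the 11 differences 10 were positive, with a median of 0.45 beside 0.01 over all probe sets tested. With values under 8 set to 8, 10 probe sets were tested, 7 differences were positive and 2 were 0, and the median was 0.15. Within numbers 1 to 4, with values as deposited, the medians were 1.04, 0.65, 0.31 and 0.15. Within 4 of 4 numbers 6 of the 11 were higher in HY_low, where 9.73% of all probe sets were. These 6 are H2-Ab1, Ctss, the brighter Cst3 probe set, Lyz2, Apoe and the brighter Csf1r probe set. Apoe and Lyz2 also count among the 10 positive differences. Since both entered through the filter as said above, these counts are not read against all probe sets either.

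Apoe averaged 5.61 in HY_low (geometric mean) and 1.27 in OT1 (2.15 ± 0.62 on the log2 scale; adjusted p by limma 1, blocked 0.202). Lyz2 had 4.57 in HY_low and 1.16 in OT1 (1.98 ± 0.59, adjusted p = 1, blocked 0.287). Its HY_low and OT1 values did not overlap, which 0.886% of all probe sets showed in this direction. Nothing is read from this share, since Lyz2 passed the filter through its HY_low values. With values under 8 set to 8 the differences were 0.30 for Apoe and 0.18 for Lyz2. Without HY_low array 4 the Lyz2 difference was 1.47, and Apoe lay under the level required for testing. Cd74 went the other way, at 3.16 in HY_low and 6.58 in OT1 (-1.06 ± 0.55, adjusted p = 1). H2-Ab1 had 3.10 in HY_low and 1.48 in OT1 (1.07 ± 0.64, adjusted p = 1), and H2-Eb1 6.91 in HY_low and 5.47 in OT1 (0.34 ± 0.53, adjusted p = 1). Array 2 had 5.18% of all its values at 1 in HY_low, 3.0% in HY_high and 19.0% in OT1, and the part of this in the differences of dim probe sets was not tested.

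**Figure D2:**
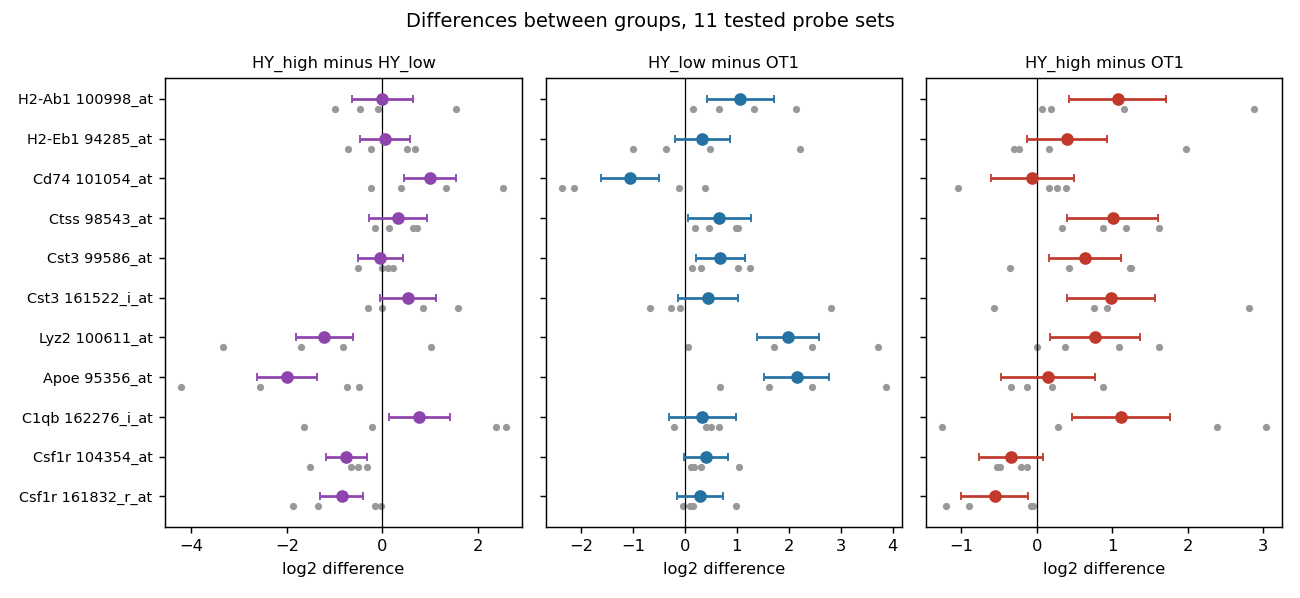
Log2 differences of the 11 tested probe sets in the 3 comparisons, with coloured points and bars for the limma estimate ± SE and small grey points for the difference within each of the 4 title numbers. Apoe and Lyz2 have the largest differences in HY_low minus OT1, at 2.15 and 1.98, and their grey points spread from 0.68 to 3.87 and from 0.06 to 3.72.

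The comparison of HY_high with OT1 uses the same OT1 arrays as the one before. With limma 0 of 11 passed, where 0.173% of all did, and 0 of 11 had an unadjusted p under 0.05, where 4.08% of all did. None stood above OT1 without overlap, where 1.52% of all did. The median was 0.64 beside 0.02 over all probe sets tested, with 8 positive. With values under 8 set to 8 it was 0.0082 over the 10 probe sets then tested. With the replicate number as a block 1 of 11 was called higher, where 1.13% of all were, and 0 lower, where 0.23% were. That one was Ctss, the brightest of them.

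Ctss averaged 296 in HY_high (geometric mean) and 148 in OT1, 2.01-fold higher (log2 difference 1.004, SE 0.61 without the block and 0.22 with it). Its limma adjusted p was 1 without the block and 0.0275 with it. Within numbers 1 to 4 the differences were 0.34, 0.88, 1.19 and 1.62, so it was higher in 4 of 4, as 10.4% of all probe sets were. HY_low lay between, at 234, and its difference from OT1 was 0.66 (adjusted p = 1, or 0.382 with the block). HY_high minus HY_low was 0.34 (0.599 with the block), and negative within number 2. The call was kept without number 1 and lost without any other number. Leaving out the 3 arrays numbered 1 gave 1.23 (adjusted p = 0.0134), but leaving out those numbered 2, 3 or 4 gave 1.05, 0.94 and 0.80 (adjusted p = 0.0797, 0.231 and 0.266).

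Some T lineage markers fell in HY_high as well. The summed level of the 14 measured ran from 1198 to 2557 in HY_high, below the 2899 to 4193 of HY_low and the 2717 to 3458 of OT1. Much of this gap is Cd8b1, the beta chain of the CD8 coreceptor. Its values ran from 1 to 8.26 in HY_high, 172 to 1374 in HY_low and 219 to 1219 in OT1. No sum was taken without Cd8b1. Over the 14 the median log2 difference was -0.34 in HY_high minus HY_low and -0.46 in HY_high minus OT1. Cd8b1 fell in both (-7.15 and -7.26, limma adjusted p = 0.000252 and 6.80e-05). It was the only one of the 14 to pass without the block, where 0.0115% and 0.0345% of all probe sets passed as lower. With the block 2 fell in the first comparison and 3 in the second, where 0.115% and 0.23% of all fell, Thy1 and Cd8b1 in both and Cd2 in the second. Cd8b1 averaged 4.52 in HY_high, 644 in HY_low and 693 in OT1, Thy1 234, 555 and 541, and Cd8a, which did not pass, 157, 339 and 340 in the same order. Among the CD3 chains, Cd3g, Cd3e and Cd3d lay the other way against OT1, at 0.33, 0.21 and 0.17. Cd247, the zeta chain, was lower, at -0.44. None of these chains passed. The part of these differences in the Ctss difference was not tested.

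Cst3, the inhibitor, had 23.9 in HY_high and 15.3 in OT1 (0.64 ± 0.47, limma adjusted p = 1, or 0.403 with the block), with a difference below 0 within number 4. C1qb had 4.05 in HY_high and 1.87 in OT1 (1.11 ± 0.64, adjusted p = 1), and number 1 ran the other way. Csf1r was lower in HY_high within 4 of 4 numbers on both probe sets, where 8.74% of all probe sets were. The brighter one did not overlap, as 1.01% did in this direction. The gap is very small: on that probe set the highest HY_high value was 3.94 and the lowest OT1 value 3.95. Its levels were 3.73 in HY_high and 4.72 in OT1 (-0.34 ± 0.42, adjusted p = 1). H2-Ab1 had 3.11 in HY_high and 1.48 in OT1 (1.07 ± 0.64, limma adjusted p 0.419 with the block). It was higher within 4 of 4 numbers, as 10.4% of all probe sets were, and its difference was 0.18 with values under 8 set to 8. H2-Eb1 and Cd74 gave 0.40 ± 0.53 and -0.06 ± 0.55, and H2-Aa, which has no test, had 2.50 in HY_high and 1.10 in OT1.

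The level of cathepsin S varied more between array numbers than between groups. Of the variance of its log2 intensity over the 12 arrays, 75.5% lay between numbers and 18.9% between groups, against medians of 52.8% and 10.7% over all probe sets tested. Its geometric means over numbers 1 to 4 were 91.9, 446, 281 and 193. The limma F test of the number, in the fit with group and number, gave an adjusted p of 2.58e-05, and without the arrays numbered 1 it gave 0.00704. The brighter Cst3 probe set passed as well (adjusted p = 0.0358), with another order of the numbers, 16.7, 14.0, 25.8 and 31.0. These 2 of 11 stand beside 38.7% of all probe sets, or 1962 of 8695 without the arrays numbered 1, against 3365 with them.

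The Cst3 call was lost in 12 of 20 alternatives, 7 of them among the 12 that leave out a single array, with adjusted p of 0.0840 after scaling to one median and 0.126 without OT1 array 4. None of the class II chains and macrophage genes passed, and H2-Ab1 came nearest (adjusted p = 0.0709). The log2 ratio of 3' to 5' control probe sets of Gapdh, a measure of RNA integrity and labelling, was 5.60 to 6.26 on arrays numbered 2, where Ctss was highest. It was 4.57 to 4.87 on those numbered 1, where Ctss was lowest, 4.69 to 5.48 on those numbered 3, and 2.95 to 3.27 on those numbered 4. The same ratio for actin did not follow that order, at 2.59 to 3.60 on arrays numbered 1, 2.02 to 2.99 on those numbered 2, 2.74 to 3.39 on those numbered 3 and 2.15 to 2.54 on those numbered 4. Their part in the levels of Ctss and Cst3 was not tested.

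**Figure D3:**
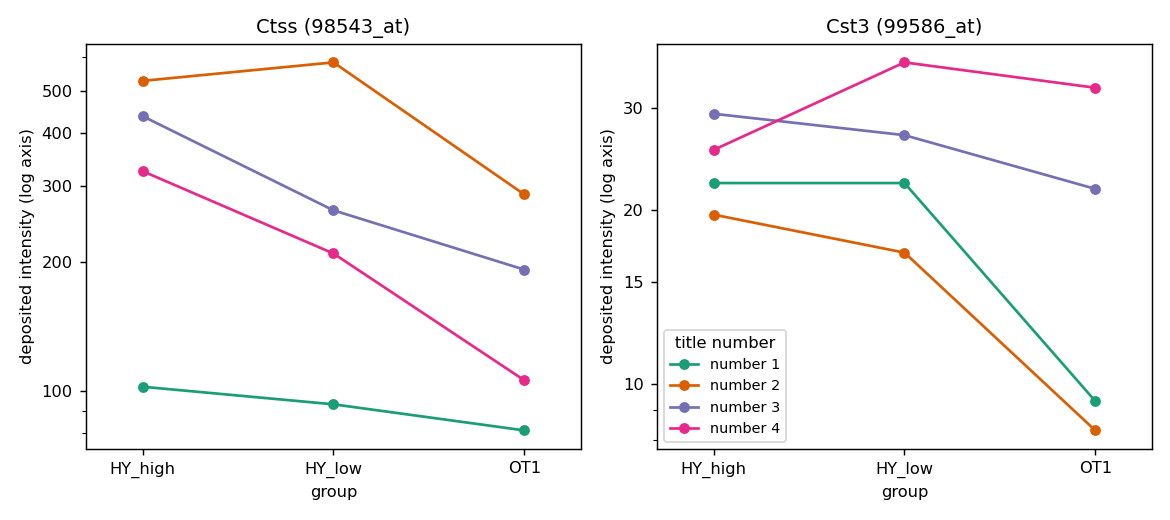
Deposited intensity (log axis) of Ctss (left) and of the brighter Cst3 probe set (right) in HY_high, HY_low and OT1, with a line for each title number. Ctss keeps the order of numbers 2, 3, 4 and 1 from high to low in all 3 groups and is lowest in OT1 within each number, while Cst3 of number 4 is higher in OT1 (32.5) than in HY_high (25.4).

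The other genes of the class II pathway were mostly dim as well. Of 17 names, some of them older names of the same gene, 13 genes were measured, and 3 had a geometric mean above 8. H2-DMa, a chain of the molecule that exchanges peptides on class II, had 25.9 in HY_high, 38.4 in HY_low and 41.9 in OT1. H2-Oa, a chain of the molecule that restrains it, had 34.2 in HY_high, 32.0 in HY_low and 22.2 in OT1. Ctsl, cathepsin L, which does in thymic epithelium what Ctss does elsewhere, had 13.4, 15.96 and 8.40 in the same order of groups. Ciita, the coactivator that controls class II genes, had 3.30 in HY_high, 4.53 in HY_low and 3.27 in OT1, with a highest value of 7.84. Cd83, also on this list, had 4.42, 1.82 and 1.14 in the same order (HY_high minus OT1 1.96, adjusted p by limma 0.221, blocked 0.0569). In that comparison 6 of the 11 genes tested were positive. Of the 11 genes tested 0 passed in any comparison, with or without the block, where 0.023% to 1.36% of all probe sets did. With shares this small, 0 calls in a short list says nothing particular of that list, here and in the lists below. The medians were -0.25 for HY_high minus HY_low, 0.47 for HY_low minus OT1 and 0.01 for HY_high minus OT1.

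Lysosomal proteases and cystatins were brighter, with 10 of 15 genes above 8. Ctsw, a cathepsin of cytotoxic lymphocytes, had 219 in HY_high and 120 in both HY_low and OT1. Ctsd, an aspartic protease, had 91.7, 92.2 and 105, Psap, the precursor of the saposins, 81.9, 86.3 and 113, and Cstb, a cystatin of the cytosol, 48.4, 59.4 and 47.1 in HY_high, HY_low and OT1. Of 13 tested 0 passed in any comparison, with or without the block, where 0.023% to 1.36% of all probe sets did. The F test of the number was passed by 8, where 38.7% of all probe sets passed it. The medians were -0.0082, 0.0028 and 0.05 in the order of comparisons used above.

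Other macrophage and dendritic cell markers gave little signal. Of 40 names 31 genes were measured, 4 had a geometric mean above 8, and 21 stayed under 8 on every array. Aif1 and Fcgr2b, both macrophage genes, lay at 1 on all 12 arrays. The 4 above 8 were Irf8, Ly75, Flt3 and Ccl22, with geometric means over all arrays of 11.99, 10.2, 10.1 and 9.29. C1qa and C1qc, the partner chains of C1qb, had 2.03 and 2.01. By group, 5 genes lay above 8 in HY_high, 4 in HY_low and 3 in OT1. Batf3 had 15.6 in HY_high, 4.24 in HY_low and 3.84 in OT1 (HY_high minus OT1 2.02, adjusted p by limma 0.516, blocked 0.0525). Ly86 had 5.20, 4.71 and 1.62 in the same order of groups. The summed level of the 31 ran from 130 to 180 in HY_high, 90.05 to 139 in HY_low and 97.4 to 154 in OT1, so the groups overlap. A sum weights the brighter genes most, so these sums were not set against the Apoe and Lyz2 levels of HY_low. Of 22 tested 0 passed in any comparison, with or without the block, where 0.023% to 1.36% of all probe sets did. The medians were 0.24, -0.08 and 0.02, and 16, 10 and 12 of the 22 differences were positive in the same order of comparisons.

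B cells also make class II, Cd74 and Ctss. Of 14 B cell genes measured 2 lay above 8, Ighm at 219 and Cd79b at 14.9, while Cd79a was at 2.52 and Ms4a1 at 5.40. The sum of the 14 ran from 174 to 548 in HY_high, 95.4 to 651 in HY_low and 105 to 1023 in OT1, and Ighm accounts for most of it. Thymic epithelial markers had 0 of 15 genes above 8, and the highest, Krt17, was at 4.95. Their sums ran from 34.4 to 49.5 in HY_high, 32.4 to 55.2 in HY_low and 33.7 to 39.5 in OT1. Of the genes tested in these lists 0 passed in any comparison, with or without the block, where 0.023% to 1.36% of all probe sets did.

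Mesenchymal, endothelial, erythroid and granulocyte or mast cell markers had 2 of 15, 1 of 9, 0 of 4 and 0 of 13 genes above 8. Of the genes tested in these lists 0 passed in any comparison without the block, where 0.023% to 0.173% of all probe sets did. With the block 1 did, Kit, a receptor of mast cells and early progenitors, which averaged 17.1 in HY_high and 2.12 in OT1 (3.01 on the log2 scale; adjusted p by limma 0.204, blocked 0.00731). In that comparison the block called 1.13% of all probe sets higher. A list of 14 measured genes of liver, brain, heart, lung, kidney and pancreas, taken as a guide to signal without the tissue, had 1 above 8, Mbp. Mbp ran from 16.4 to 46.9 over all arrays and so gave most of the values above 8 in that list. Whether thymocytes make Mbp RNA was not checked, so its level is not read as signal without a transcript. In contrast 13 of 14 T lineage genes lay above 8, Zap70 at 604 and Thy1 at 413 among them, while Cd4 was at 5.20. These levels show RNA of T lineage cells and do not show whether other cells added to the RNA. In bulk RNA fewer cells of a type cannot be told apart from less RNA per cell, and what share of the Ctss signal belongs to thymocytes was not tested.

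**Figure D4:**
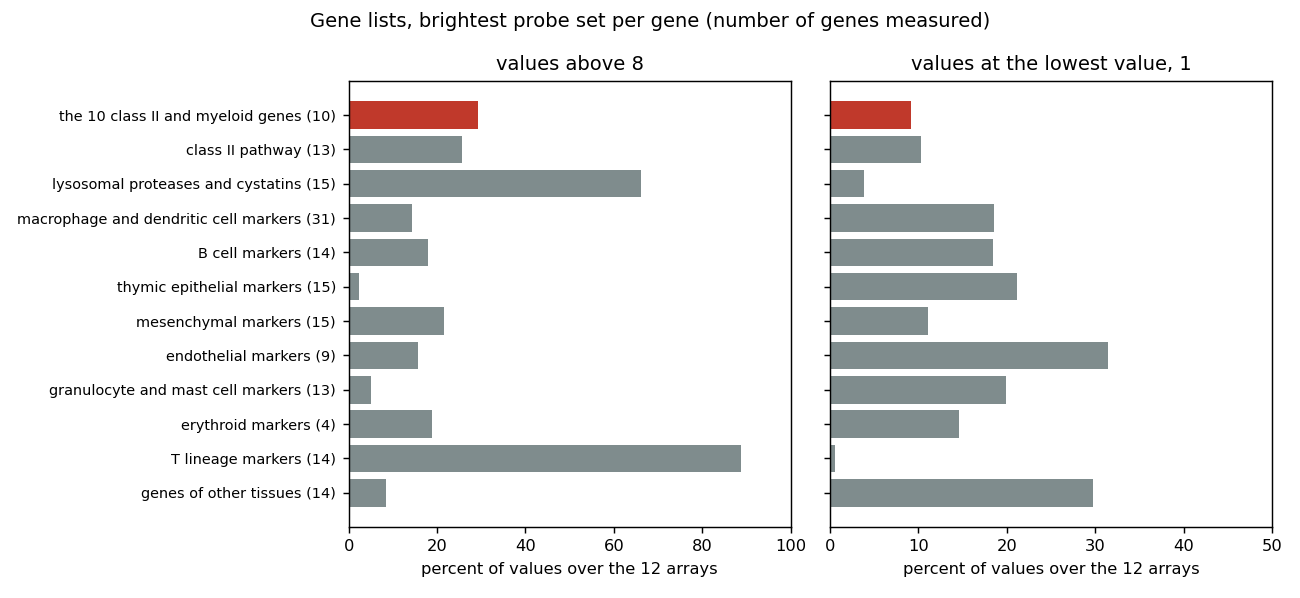
Percent of values above 8 (left) and at the lowest value of 1 (right) over the 12 arrays for each gene list, with the brightest probe set per gene and the number of genes measured in brackets. Macrophage and dendritic cell markers have 14.2% of values above 8, against 29.2% for the 10 genes described here, 66.1% for lysosomal proteases and cystatins, 88.7% for T lineage markers and 8.33% for genes of other tissues. Most of the values above 8 in the last list come from Mbp, which exceeded 8 on all 12 arrays. Whether thymocytes make Mbp RNA was not checked.

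The patterns most like those of the genes were named by their Pearson correlation over the 12 arrays among 7707 probe sets, as a description, since all probe sets share the arrays and their numbers. For the average of the 3 tested class II genes, H2-Ab1, H2-Eb1 and Cd74, these were Mybph (0.80), Mdk (0.78), Ece1 (0.78), Crtap (0.77) and Nek6 (0.76). For the average of the other 6 they were Lpl (0.88), Phf7 (0.86), Has3 (0.83), Thrsp (0.81) and Nell2 (0.81). None of these 10 is on the class II pathway or macrophage lists used here. Those lists do not hold every gene of such cells, and Lpl was not on them, so this absence is not read. For Ctss alone, which was added after its values were seen, they were Dr1 (0.97), Cd53 (0.96), Ndfip1 (0.95), Rbms1 (0.95) and Uqcrb (0.95). All 5 had their highest mean on arrays numbered 2 and their lowest on those numbered 1, as Ctss did.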

How the data were processed

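The authors deposited a single table of intensity values on a linear scale for 12488 Affymetrix probe sets on 12 arrays; the steps from scan to value are not given in the sources used here. Values were used as deposited, since array medians lay between 3.33 and 3.97, and put on a log2 scale. The 66 control probe sets were left out, and testing required a mean log2 value above the 30th percentile, an intensity of 1.76, which kept 8695. Symbols came from the platform annotation (10833 probe sets with 1 symbol, 396 with several, 1193 with none), updated by gene ID.

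One limma fit (version 3.58.1, R 4.3.3) with a mean per group, an intensity trend and two-sided Benjamini-Hochberg adjusted tests gave all 3 comparisons. It was run on simulated data with independent noise and no effect of the title number, so that run says nothing of the block. Deviations of same-numbered arrays from their group means correlated at 0.341 to 0.593 in all 12 pairs and those of the 36 other pairs at -0.40 to 0.163, so the title numbers pair the arrays; this comes from the data, not from the labels. Lists and genes were chosen with earlier results of these data known. Every member probe set was to be named, and up to 4 genes per list by their level. Ciita, Cd83, C1qa, C1qc, Aif1, Fcgr2b, Batf3, Ly86, Cd79a, Cd4, Cd8b1, Cd2, Cd3e, Cd3d and Cd247 were also named, after their values were seen. Alternatives were no filter, a floor at 8, log2(value + 16), quantile normalization, one median, array weights, no trend, the block and leaving out each array.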

Additional observations from a re-analysis of the deposited data

Results flagged for a closer look

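Of 45 groups of 4 arrays, 3 of them constant, 7 held an array set apart from the other 3 by Dixon's test at the 95% level, where chance gives about 1 in 20 groups. All 7 were arrays numbered 1. H2-Aa was at 1.52 on HY_low array 1 (1.35 to 1.37 on the others) and at 1.48 on OT1 array 1 (1 on the others). The dimmer Cst3 probe set was at 2.06 on OT1 array 1 (4.41 to 4.90), and Lyz2 at 1.75 on the same array (1 to 1.02). Apoe was at 3.33 on HY_high array 1 (1 to 1.17). The dimmer C1qb probe set was at 1.27 on OT1 array 1 (1 on the others), and the dimmer Csf1r probe set at 6.07 on HY_low array 1 (2.92 to 2.94). Where the other 3 arrays are tied at 1, as for H2-Aa and C1qb in OT1, any other value stands apart, and the chance share does not apply; the Lyz2 values of OT1 are nearly tied. Each of these values lies below 8.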

How the results depend on the processing

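The count of probe sets passing in HY_high minus HY_low, 2, was 0 without the filter (431 at an unadjusted p under 0.05, limma), 4 with the floor, 6 with log2(value + 16), 1 with one median, 7 with array weights, 30 with the replicate block and 1 to 4 with each array left out. In HY_low minus OT1, 2 became 4 with array weights, 8 with the block and 2 to 3 with arrays left out. In HY_high minus OT1, 15 became 9 without the filter, 8 with the floor, 64 with array weights, 118 with the block, 9 without the arrays numbered 1 and 6 to 17 with arrays left out. It fell to 6 without OT1 array 2 or HY_high array 3, 7 without OT1 array 4 or HY_high array 2, and 9 without OT1 array 3 or HY_high array 4. The number term's 3365 became 1962 without the arrays numbered 1 and 2722 to 3205 with single arrays left out.

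The median over the tested probe sets, 11 but 10 with the floor or without HY_low array 4, in HY_high minus HY_low was -0.13 with array weights, -0.020 with the floor and -0.22 to 0.16 with arrays left out. In HY_low minus OT1 it was 0.15 with the floor, 0.13 with log2(value + 16) and 0.17 to 0.58 with arrays left out. In HY_high minus OT1 it was 0.0082 with the floor, 0.087 with log2(value + 16) and 0.38 to 0.71 with arrays left out.

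Of 33 member differences 10 changed sign, over 30 of 699 values. The other 23 did not, but 4 of them were exactly 0 with the floor, so 19 kept their sign under every alternative that gave a value. H2-Ab1 in HY_high minus HY_low was -0.045 with one median, -0.32 with array weights, -0.51 without the arrays numbered 1 and -0.69 to 0.48 with arrays left out. H2-Eb1 in HY_high minus HY_low was -0.066 with the floor, -0.13 with array weights and -0.19 to 0.23 with arrays left out. H2-Eb1 in HY_low minus OT1 was -0.29 without the arrays numbered 1 and -0.12 to 0.71 with arrays left out, and in HY_high minus OT1 -0.062 with the floor, -0.13 without the arrays numbered 1 and -0.058 to 0.77. The dimmer Cst3 probe set in HY_low minus OT1 was -0.34 without the arrays numbered 1 and -0.043 to 0.75 with arrays left out. In HY_high minus OT1, Cd74 was 0.13 with array weights and -0.19 to 0.20 with arrays left out, and Apoe was -0.10 with array weights, -0.090 without the arrays numbered 1 and -0.26 to 0.32. With arrays left out, HY_high minus HY_low ran from -0.22 to 0.14 for the brighter Cst3 probe set and from -0.10 to 0.85 for Ctss, and HY_low minus OT1 from -0.061 to 0.75 for C1qb.

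The block made Ctss in HY_high minus OT1 pass (adjusted p = 0.0275) and changed no other member's call. Without HY_low array 4, Apoe lay under the filter and has no value. Leaving out the arrays numbered 1, and Ctss with each number left out under the block, were chosen after seeing the data. The causes of these changes were not tested. The number of arrays limits the precision, and most members lie within the range of control probe sets.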
